A study of Homo sapiens with 4 samples.

Results

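Cadherins, vimentin and the transcription factors of the epithelial-mesenchymal transition (EMT) were described in 2 human prostate cancer cell lines. The set was a list of 10 gene symbols, comprising CDH1 and EPCAM for epithelial adhesion, CDH2, VIM and FN1 for the mesenchymal state, and the repressors ZEB1, ZEB2, SNAI1, SNAI2 and TWIST1. All 10 were measured, each by 1 probe set, among 17687 genes with a symbol on the array. PC-3 cells, derived from a bone metastasis, and 22Rv1 cells, derived from a xenograft, carried either short hairpin RNAs against TNFRSF13B (shTNFRSF13B) or the empty vector, delivered by lentivirus and kept under puromycin selection at 2 µg/mL. TNFRSF13B encodes TACI, a receptor of the tumour necrosis factor family that the sample labels call CD267, and the labels spell the lines PC3 and 22RV1 and call the empty vector Ctrl. Total RNA of each of the 4 conditions (PC-3 empty vector, PC-3 shTNFRSF13B, 22Rv1 empty vector and 22Rv1 shTNFRSF13B) was hybridised to 1 Affymetrix array. No condition had a replicate, and all values below are given without a spread, standard error or p-value, and a difference between lines could not be told apart from their culture media (F12 for PC-3 and RPMI for 22Rv1).

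In an epithelium, E-cadherin binds neighbouring cells together through its extracellular part and is tied to actin through the catenins. During EMT, cells lose this junction and turn to N-cadherin, the intermediate filament vimentin and a fibronectin matrix. The ZEB, SNAI and TWIST transcription factors are known for repressing CDH1, the ZEB and SNAI proteins by binding E-box sequences in its promoter. Cancer cell lines can be fixed at different points of this axis.

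The deposited values are on a log2 scale, so a difference of 1 is a 2-fold difference, the criterion used throughout. The 22Rv1 empty vector array stood apart. The median probe set stood at 5.33 there, but at 6.93 to 7.01 on the other 3 arrays, and its maximum was 19.8 against 18.4 on each of them. For the 10 genes and for counts, differences that used this array are therefore also given after quantile normalization, by which all 4 arrays share a single distribution. Values of single genes of the further lists are mostly given as deposited only. The median difference over all genes was 1.15 for PC-3 minus 22Rv1 with the empty vector and 1.22 for shTNFRSF13B minus empty vector in 22Rv1 cells as deposited, against -0.07 and -0.06 after quantile normalization. The background level of an array was set at the 95th percentile of 349 olfactory receptor genes, and values at or below it were read as background (4.92 and 4.98 on the PC-3 empty vector and shTNFRSF13B arrays, 3.91 and 5.30 on the 22Rv1 arrays). Where only the lower of a pair of values was background, a fold difference is given as "at least", measured from this level, and where both were, no fold is given. Levels are printed as measured, also where they were background. TNFRSF13B was lower with shTNFRSF13B in both lines, at 4.85 (background) against 5.25 in PC-3 and 5.63 against 6.08 in 22Rv1 cells (5.23 against 7.43 after quantile normalization). As deposited, the printed values differed by less than 2-fold in each line, but this sets no upper limit on the difference. The lower PC-3 value was background, and the 22Rv1 pair used the array that stood apart in scale. The 4 markers listed for PC-3 cells were all at least 2-fold higher in PC-3 than in 22Rv1 cells with either construct as deposited, and 3 of 4 were after quantile normalization. Of 8 luminal prostate markers measured, 2 were lower and 1 was higher in PC-3 cells with both constructs on either scale. FOLH1, the gene of prostate-specific membrane antigen, stood at 3.42 and 3.96 (both background) in PC-3 cells and 14.29 and 15.53 in 22Rv1 cells, with the empty vector and shTNFRSF13B. STEAP2 stood at 9.63 and 10.75 against 13.89 and 15.41. HOXB13 was the higher one, at 12.23 and 12.40 against 7.72 and 9.89.

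PC-3 and 22Rv1 cells were compared first, to place the lines on the epithelial-mesenchymal axis. The lines differed by at least 2-fold in the same direction in every such comparison for 6 of the 10 genes. CDH1 and EPCAM were higher in 22Rv1 cells, and CDH2, VIM, FN1 and ZEB1 were higher in PC-3 cells, with either construct and on both scales. ZEB2 and SNAI1 lay at or near background on all arrays, and SNAI2 differed little between the lines once the scale of the 22Rv1 empty vector array was set aside.

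**Figure D1:**
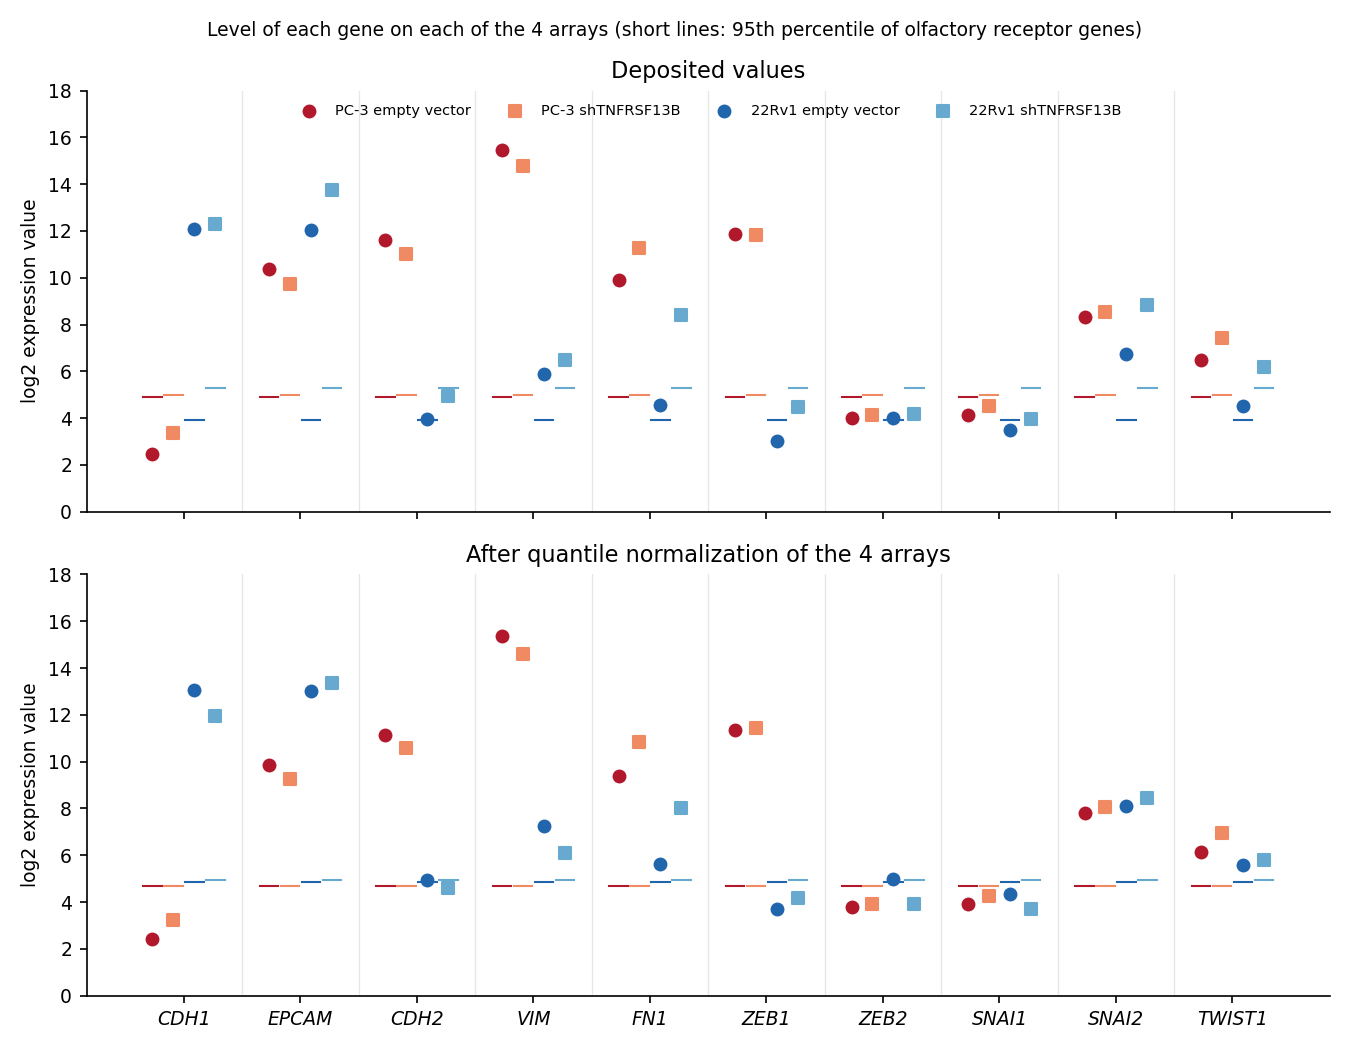
Log2 expression value of each gene (y axis) on the 4 arrays, as deposited (top) and after quantile normalization (bottom). Each point is 1 array, and the short lines mark the background level of the array. CDH1 lay below its line on both PC-3 arrays and ZEB1 below its line on both 22Rv1 arrays, whereas VIM reached 15.47 in PC-3 cells and at most 6.50 in 22Rv1 cells as deposited.

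CDH1 (NCBI gene 999) encodes E-cadherin, the adhesion receptor of epithelial adherens junctions. Its log2 level was 2.48 on the PC-3 empty vector array, 3.36 on the PC-3 shTNFRSF13B array, 12.07 on the 22Rv1 empty vector array and 12.31 on the 22Rv1 shTNFRSF13B array. Both PC-3 values were background, and the empty vector value exceeded only 1.04% of genes on its array. CDH1 was thus at least 142-fold lower in PC-3 than in 22Rv1 cells with the empty vector and at least 161-fold lower with shTNFRSF13B. After quantile normalization these bounds were 340-fold and 156-fold.

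EPCAM (NCBI gene 4072) encodes the epithelial cell adhesion molecule, a surface glycoprotein of most carcinomas. Its levels were 10.38 and 9.71 on the PC-3 empty vector and shTNFRSF13B arrays, and 12.03 and 13.73 on the corresponding 22Rv1 arrays. It was therefore well above background in PC-3 cells, in contrast to CDH1. The PC-3 minus 22Rv1 difference was -1.65 with the empty vector and -4.02 with shTNFRSF13B, a 16.2-fold lower level in the latter pair. After quantile normalization the differences were -3.18 and -4.09.

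CDH2 (NCBI gene 1000) encodes N-cadherin, the cadherin of neural and mesenchymal cells. It was measured at 11.62 and 11.01 on the PC-3 empty vector and shTNFRSF13B arrays and at 3.98 and 4.94 on the 22Rv1 arrays. The 22Rv1 empty vector value exceeded its background level by 0.07 and the 22Rv1 shTNFRSF13B value was background. CDH2 was 199-fold higher in PC-3 cells with the empty vector (73.1-fold after quantile normalization) and at least 52.2-fold higher with shTNFRSF13B.

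VIM (NCBI gene 7431) encodes vimentin, the main intermediate filament of mesenchymal cells. Its levels were 15.47 and 14.76 in PC-3 cells and 5.90 and 6.50 in 22Rv1 cells, in the order empty vector and shTNFRSF13B. The PC-3 values lay above 99.2% and 98.4% of genes, whereas the 22Rv1 values lay near the middle of their arrays, above 55.5% and 47.3% of genes. VIM was 757-fold higher in PC-3 cells with the empty vector and 307-fold higher with shTNFRSF13B, and 281-fold and 364-fold higher after quantile normalization. As deposited, its difference in the empty vector pair was above that of 99.8% of genes.

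FN1 (NCBI gene 2335) encodes fibronectin, a glycoprotein of the extracellular matrix. It was measured at 9.91 and 11.28 on the PC-3 empty vector and shTNFRSF13B arrays and at 4.55 and 8.42 on the 22Rv1 arrays. All 4 values were above background, and the PC-3 and 22Rv1 values did not overlap. The PC-3 minus 22Rv1 difference was 5.35 with the empty vector and 2.86 with shTNFRSF13B (3.76 and 2.83 after quantile normalization). The gap was smaller in the shTNFRSF13B pair, where both lines had their higher value.

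ZEB1 (NCBI gene 6935) encodes a zinc finger repressor of CDH1 and other epithelial genes. Its levels were 11.86 and 11.85 in PC-3 cells and 3.03 and 4.49 in 22Rv1 cells with the empty vector and shTNFRSF13B. Both 22Rv1 values were background, so ZEB1 was at least 248-fold higher in PC-3 cells with the empty vector and at least 93.3-fold higher with shTNFRSF13B. The bounds were 91.2-fold and 90.2-fold after quantile normalization.

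The paralogue ZEB2 (NCBI gene 9839) did not share this pattern. Its levels were 3.99 and 4.13 in PC-3 cells and 4.01 and 4.18 in 22Rv1 cells, and only the 22Rv1 empty vector value exceeded its background level, by 0.10. SNAI1 (NCBI gene 6615), which encodes the zinc finger repressor Snail, was background on all 4 arrays, at 4.14 and 4.53 in PC-3 and 3.50 and 3.97 in 22Rv1 cells.

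SNAI2 (NCBI gene 6591), which encodes the related repressor Slug, was above background in both lines. Its levels were 8.30 and 8.54 in PC-3 cells and 6.73 and 8.84 in 22Rv1 cells. The PC-3 minus 22Rv1 difference was 1.57 with the empty vector as deposited but -0.31 after quantile normalization, and -0.30 with shTNFRSF13B as deposited. Its direction with the empty vector therefore turned with the scale. TWIST1 (NCBI gene 7291), a basic helix-loop-helix factor of mesoderm, was measured at 6.49 and 7.44 in PC-3 cells and 4.53 and 6.20 in 22Rv1 cells. The PC-3 values were the higher ones, by 1.96 with the empty vector (0.54 after quantile normalization) and by 1.24 with shTNFRSF13B (1.16).

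Counted at 2-fold, 6 of 10 genes were higher and 2 lower in PC-3 cells with the empty vector as deposited, where 55.1% of all genes were higher and 5.96% lower. After quantile normalization 4 were higher and 3 lower, against 19.6% and 21.5% of all genes, the third lower gene being ZEB2, whose PC-3 value was background. With shTNFRSF13B, 5 were higher and 2 lower on either scale, against 17.0% and 16.4% of all genes as deposited and 16.5% and 16.5% after quantile normalization. With both constructs, 5 genes were higher (CDH2, VIM, FN1, ZEB1 and TWIST1) and 2 lower (CDH1 and EPCAM) as deposited, against 15.2% and 4.34% of all genes. After quantile normalization the counts were 4 and 2, against 10.1% and 9.55%, and TWIST1 was the gene no longer counted. The median over the 10 genes was 1.77 with the empty vector and 0.90 with shTNFRSF13B as deposited, beside 1.15 and -0.03 over all genes. After quantile normalization these medians were 0.12 and 0.85, beside -0.07 and -0.02.

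**Figure D2:**
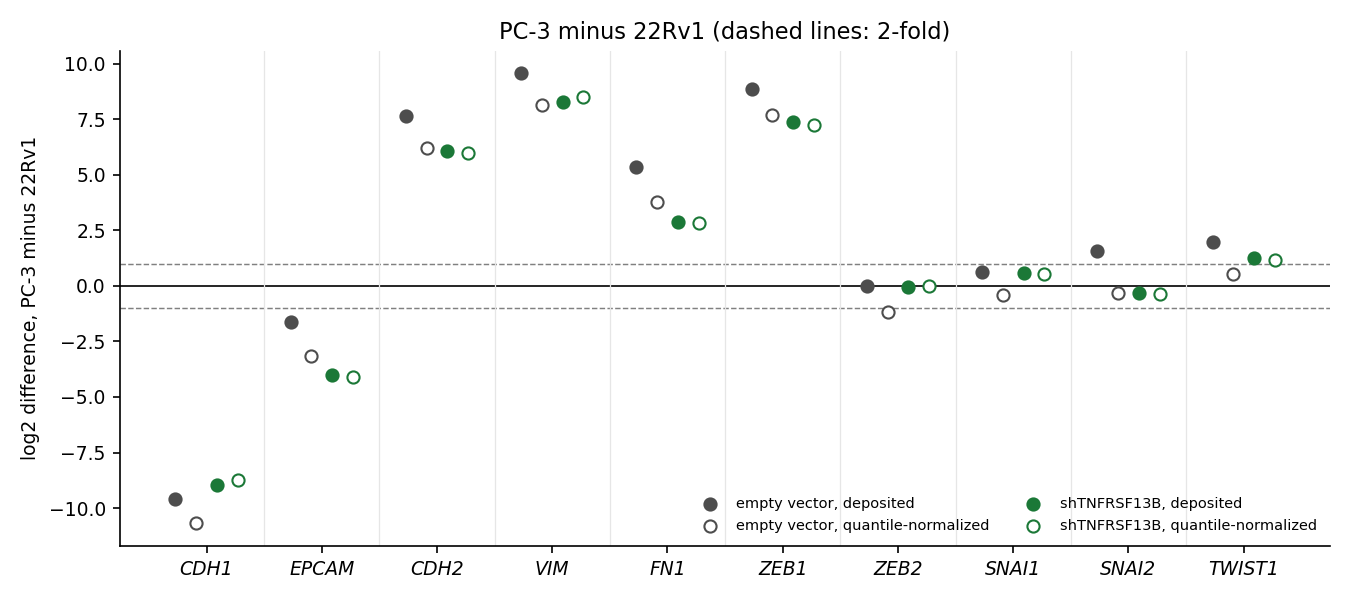
Log2 difference PC-3 minus 22Rv1 (y axis) of each gene with the empty vector (grey) and with shTNFRSF13B (green), as deposited (filled) or after quantile normalization (open). Each point is a difference of 2 arrays and the dashed lines mark 2-fold. CDH2, VIM, FN1 and ZEB1 lie above the upper line and CDH1 and EPCAM below the lower line in all cases, whereas SNAI2 changes side.

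The promoter sequences of these genes were read next, for the E-box letters CACCTG and their reverse complement CAGGTG, which ZEB and SNAI proteins are known to bind. The windows were the 250 bases before each transcription start in RefSeq (GRCh38.p14). Of the 10 genes, 5 matched a window (CDH2, VIM, FN1, ZEB1 and ZEB2). Of these only ZEB1 held the motif, in 2 of its 7 windows. Over all windows, 17.5% held at least 1 match. Among the 30 further epithelial genes described below, 16 had a window and 12 of them (75.0%) held the motif, against 20.6% of all genes with a window. Of the further mesenchymal genes 5 of 20 held it, and of the other EMT transcription factors 0 of 15. A match is a stretch of letters, not a binding site. The window of VIM and 1 of the 2 of CDH2, with no match, follow. After them come only the 2 ZEB1 windows with a match, and the windows of the epithelial genes AP1M2 and TMEM30B. The last 2 genes held 3 matches each and do not stand for the whole list. CRB3 held 5 and MUC1 held 4, while EHF and MARVELD2 held 0 and were lower in PC-3 cells with both constructs. MUC1 was higher in PC-3 cells with the empty vector, at 5.25 against 2.98 (background). Whether matches go with the level of a gene was not tested. The windows shown run 5′ to 3′ on the strand of the gene and end at the base before the start, with the motif in capitals.

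VIM, chr10:17227991-17228240, plus strand: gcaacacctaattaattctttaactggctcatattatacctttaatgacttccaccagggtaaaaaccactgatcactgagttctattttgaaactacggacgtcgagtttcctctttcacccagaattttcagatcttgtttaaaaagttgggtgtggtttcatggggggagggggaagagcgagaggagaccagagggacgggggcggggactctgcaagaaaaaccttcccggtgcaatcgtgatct
CDH2, chr18:28177131-28177380, minus strand: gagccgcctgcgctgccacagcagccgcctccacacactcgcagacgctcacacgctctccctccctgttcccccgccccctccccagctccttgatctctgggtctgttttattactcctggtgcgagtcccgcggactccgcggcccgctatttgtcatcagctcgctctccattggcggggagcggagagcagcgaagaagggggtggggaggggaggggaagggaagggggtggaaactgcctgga
ZEB1, chr10:31318167-31318416, plus strand: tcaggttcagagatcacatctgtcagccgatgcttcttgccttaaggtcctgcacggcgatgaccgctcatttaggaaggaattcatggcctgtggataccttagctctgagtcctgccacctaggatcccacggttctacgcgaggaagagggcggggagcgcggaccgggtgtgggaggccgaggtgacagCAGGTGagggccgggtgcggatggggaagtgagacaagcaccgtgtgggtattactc
ZEB1, chr10:31318966-31319215, plus strand: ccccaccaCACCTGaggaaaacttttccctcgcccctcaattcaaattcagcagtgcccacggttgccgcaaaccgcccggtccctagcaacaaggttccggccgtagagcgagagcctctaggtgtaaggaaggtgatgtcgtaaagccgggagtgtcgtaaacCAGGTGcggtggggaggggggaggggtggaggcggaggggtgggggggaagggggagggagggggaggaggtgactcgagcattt
AP1M2, chr19:10587313-10587562, minus strand: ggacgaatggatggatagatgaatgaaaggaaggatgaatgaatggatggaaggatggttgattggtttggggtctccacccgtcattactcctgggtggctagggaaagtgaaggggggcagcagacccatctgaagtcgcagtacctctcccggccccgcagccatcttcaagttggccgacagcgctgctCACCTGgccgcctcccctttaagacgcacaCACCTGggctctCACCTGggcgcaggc
TMEM30B, chr14:61281339-61281588, minus strand: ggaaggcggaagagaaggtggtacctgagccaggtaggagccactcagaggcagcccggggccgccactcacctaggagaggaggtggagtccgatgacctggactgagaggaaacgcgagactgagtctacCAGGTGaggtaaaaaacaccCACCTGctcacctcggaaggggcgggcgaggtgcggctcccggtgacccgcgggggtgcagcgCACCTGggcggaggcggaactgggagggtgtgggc

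The capitals in the first ZEB1 window shown begin 57 bases before its start, and those in the second one shown begin 242 and 85 bases before its start. In AP1M2, an adaptor subunit for sorting to the basolateral membrane, the matches begin 57, 27 and 15 bases before the start. In TMEM30B, a subunit of lipid flippases, they begin 118, 98 and 35 bases before it.

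Lists of related genes were then set beside the 10. Of 30 epithelial genes 28 were measured. With shTNFRSF13B, 0 were at least 2-fold higher and 21 were lower in PC-3 cells, where 17.0% of all genes were higher and 16.4% lower. The median was -2.33 beside -0.03 over all genes. With the empty vector, 3 were higher and 12 lower as deposited, against 55.1% and 5.96% of all genes, with a median of -0.78 beside 1.15. After quantile normalization 2 were higher and 23 lower in that pair, against 19.6% and 21.5%, with a median of -2.39 beside -0.07. With both constructs 12 were lower as deposited (4.34% of all genes) and 19 after quantile normalization (9.55%), and 0 were higher on either scale (15.2% and 10.1%). ESRP1, a splicing regulator of epithelial isoforms, stood at 4.67 and 4.72 in PC-3 cells and 12.62 and 13.72 in 22Rv1 cells. Its PC-3 values were background, as those of CDH1 were. GRHL2, a transcription factor that maintains epithelial junctions, stood at 5.56 and 4.58 against 12.06 and 13.57. AP1M2 stood at 3.96 and 3.66 against 10.46 and 11.79, and ST14, the membrane protease matriptase, at 4.56 and 3.28 against 9.01 and 10.08. The PC-3 values of AP1M2 and ST14 were background, as was that of GRHL2 with shTNFRSF13B. All 4 genes were named for the largest line differences in the list, so their contrast between the lines follows from that choice.

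Of 30 mesenchymal genes 27 were measured, and 12 were higher and 1 lower in PC-3 cells with both constructs as deposited, against 15.2% and 4.34% of all genes. After quantile normalization 10 were higher and 1 lower, against 10.1% and 9.55%. In the empty vector pair alone, 17 were higher and 2 lower on the deposited scale, against 55.1% and 5.96% of all genes. Quantile normalization left 10 higher and 7 lower, against 19.6% and 21.5%. The median was 1.34 with the empty vector (0.66 after quantile normalization) and 0.31 with shTNFRSF13B (0.27). Over all genes it was 1.15 (-0.07) and -0.03 (-0.02). EMP3, a small membrane protein, stood at 13.35 and 13.55 in PC-3 cells and 3.87 and 6.12 in 22Rv1 cells. MSN, which encodes moesin and links the membrane to actin, stood at 14.30 and 13.84 against 6.28 and 6.72. The receptor tyrosine kinase AXL stood at 12.30 and 10.40 against 4.13 and 5.35, and the matricellular protein gene CCN1 at 10.32 and 11.88 against 3.84 and 5.33. The 22Rv1 empty vector values of EMP3 and CCN1 were background. These 4 genes were named for the largest line differences in the list, so their lack of overlap follows from that choice.

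**Figure D3:**
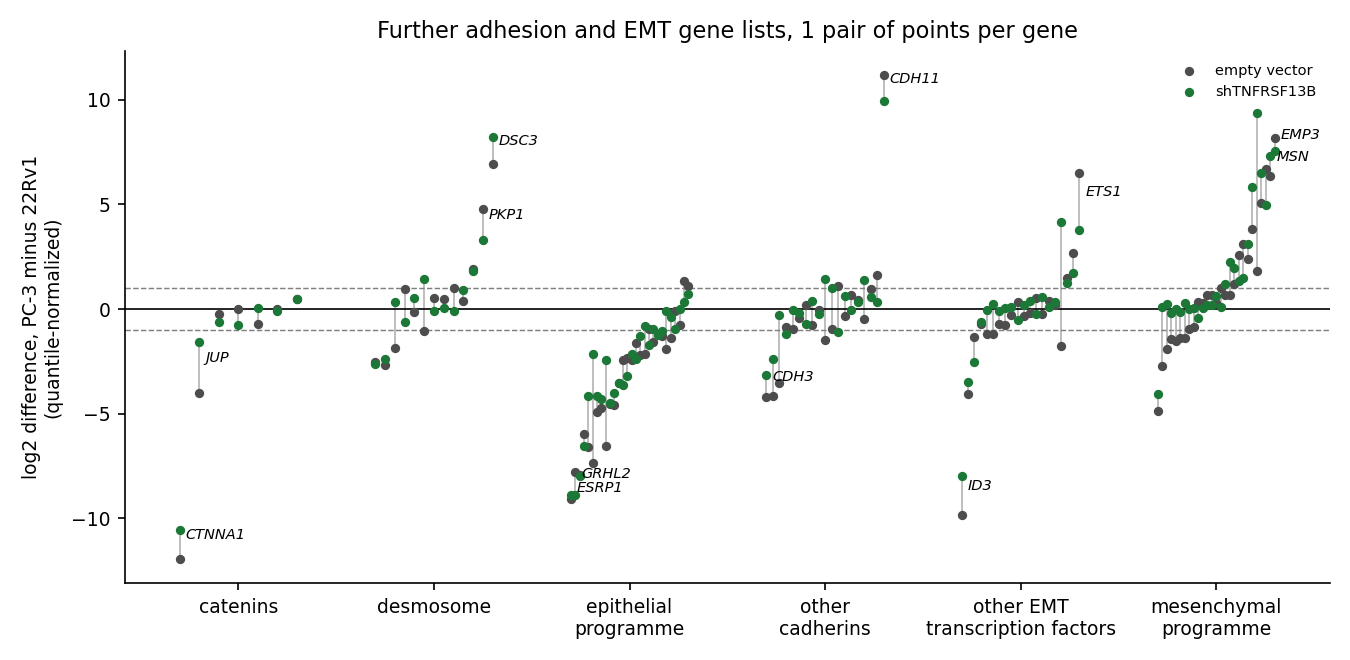
Log2 difference PC-3 minus 22Rv1 after quantile normalization (y axis) for the genes of 6 further lists (x axis), with 1 grey point (empty vector) and 1 green point (shTNFRSF13B) per gene joined by a line, sorted within a list. Dashed lines mark 2-fold and the leading genes of each list are named. Most epithelial genes lie below 0, whereas CTNNA1 and CDH11 stand far from the other catenins and cadherins.

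Of the other 19 cadherins measured, 1 was higher and 2 were lower in PC-3 cells with both constructs, on either scale, against 15.2% and 4.34% of all genes as deposited and 10.1% and 9.55% after quantile normalization. The higher one was CDH11, a mesenchymal cadherin known from osteoblasts, at 14.91 and 14.50 in PC-3 cells and 2.89 and 4.75 in 22Rv1 cells. Its 22Rv1 values were background, so it was at least 2054-fold higher with the empty vector (914-fold after quantile normalization) and at least 588-fold higher with shTNFRSF13B. The lower ones were CDH3, which encodes P-cadherin, at 4.27 and 5.24 against 6.85 and 8.50, and CDH23, at 3.76 and 4.70 against 6.39 and 7.22. CDH18 stood at 4.87 and 4.82 against 6.80 and 5.16, and only its 22Rv1 empty vector value was above background. Both PC-3 values of CDH23 were background, as was that of CDH3 with the empty vector.

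Among 7 catenins measured, CTNNA1 and JUP were the only ones lower in PC-3 cells with both constructs, on either scale, against 4.34% and 9.55% of all genes. CTNNA1, which encodes the α-catenin that ties the E-cadherin complex to actin, stood at 2.66 and 2.90 in PC-3 cells and 13.85 and 13.78 in 22Rv1 cells. It was background in PC-3 cells and, as deposited, at least 487-fold lower there with the empty vector and 446-fold lower with shTNFRSF13B. JUP, which encodes plakoglobin, stood at 7.47 and 8.14 against 9.78 and 9.63. CTNNB1, the gene of β-catenin, was high in both lines, at 13.64 and 13.83 against 12.37 and 14.11. CTNNAL1 stood at 10.44 and 10.43 against 8.08 and 9.87, and CTNND2 at 4.72 and 4.83 against 3.61 and 5.69. Only the last of the CTNND2 values was above background.

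Of 13 desmosomal genes measured, 4 were higher and 2 were lower in PC-3 cells with shTNFRSF13B, against 17.0% and 16.4% of all genes. With the empty vector, 8 were higher and 1 lower as deposited, against 55.1% and 5.96%. After quantile normalization 3 were higher and 4 lower in that pair, against 19.6% and 21.5%. The desmosomal cadherin gene DSC3 stood at 11.67 and 12.26 in PC-3 cells and was background in 22Rv1 cells, at 3.42 and 3.87. PKP1, a plakophilin of desmosomal plaques, stood at 10.39 and 9.16 against 4.11 and 5.74. DSG2, a desmosomal cadherin, and PERP, a desmosomal membrane protein, were lower in PC-3 cells, at 9.10 and 8.39 against 9.86 and 10.88 for DSG2 and 11.66 and 11.25 against 13.03 and 13.61 for PERP. The DSG2 difference with the empty vector was below 2-fold as deposited.

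Among the 20 other EMT transcription factors measured, 3 were higher and 2 lower in PC-3 cells with both constructs as deposited, against 15.2% and 4.34% of all genes, and 3 and 3 after quantile normalization, against 10.1% and 9.55%. ID3, an inhibitor of basic helix-loop-helix factors, stood at 4.19 and 5.88 in PC-3 cells and 12.99 and 13.87 in 22Rv1 cells. Its relative ID1 stood at 10.14 and 9.40 against 12.83 and 12.78. ETS1, a transcription factor of invasive cells, stood at 9.84 and 8.52 against 2.47 and 4.56, and HMGA2, a chromatin protein of embryonic cells, at 9.68 and 8.38 against 5.25 and 6.55. Both 22Rv1 values of ETS1 were background, as was the PC-3 empty vector value of ID3.

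The shTNFRSF13B array was then compared with the empty vector array within each line. With 1 array on each side, silencing could not be told apart from other differences between the 2 cultures or arrays. FN1 was the only one of the 10 genes that was at least 2-fold higher with shTNFRSF13B in both lines on both scales. In PC-3 cells it was 11.28 against 9.91, a difference of 1.38 or 2.60-fold (2.74-fold after quantile normalization), and in 22Rv1 cells it was 8.42 against 4.55, a difference of 3.87 or 14.6-fold (5.24-fold). In PC-3 cells this difference was above that of 97.1% of genes and in 22Rv1 cells above that of 98.5%. Of the 8 fibroblast markers measured, COL1A2 was higher with FN1, at 7.998 and 8.94 in PC-3 and 4.68 and 8.70 in 22Rv1 cells (5.79 and 8.29 after quantile normalization). Its PC-3 difference was below 2-fold. LUM was background in PC-3 cells. It stood at 6.10 and 6.56 in 22Rv1 cells as deposited, but at 7.45 and 6.18 after quantile normalization. COL1A1 and PDGFRA were each above background on 1 array, while DCN, PDGFRB, THY1 and FAP were background on all 4 arrays. The markers above background numbered 1, 2, 2 and 3 of 8 on the 4 arrays in the order of the conditions above, and the sum of their log2 values was 36.0 and 38.2 in PC-3 and 29.7 and 40.1 in 22Rv1 cells (34.1 and 36.1, then 36.1 and 37.7, after quantile normalization). Their part in the FN1 values was not tested. In a bulk sample, a change in the share of cells and a change of RNA per cell cannot be told apart.

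In PC-3 cells, 1 of the 10 genes was higher and 0 were lower with shTNFRSF13B on either scale, against 5.76% and 4.69% of all genes as deposited and 5.87% and 4.25% after quantile normalization. The other genes above background lay within 2-fold. VIM was 0.71 lower (0.76 after quantile normalization), EPCAM 0.67 lower (0.61) and CDH2 0.61 lower (0.55). TWIST1 was 0.95 higher (0.83), just inside the criterion, and SNAI2 was 0.24 higher (0.25). ZEB1 moved least, with a difference of -0.02 (0.06). CDH1, ZEB2 and SNAI1 were background on both arrays. The median over the 10 genes was 0.19, beside -0.0019 over all genes.

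In 22Rv1 cells, the count turned with the scale. As deposited, 5 of the 10 genes were higher and 0 lower with shTNFRSF13B (EPCAM, FN1, ZEB1, SNAI2 and TWIST1), where 58.3% of all genes were higher and 2.01% lower. After quantile normalization 1 was higher and 3 were lower, against 13.3% and 15.5% of all genes. The 1 higher gene was FN1, and the lower ones were CDH1, VIM and ZEB2, the last from a value at the edge of background. The median over the 10 genes was 1.21 as deposited and -0.07 after quantile normalization, beside 1.22 and -0.06 over all genes. CDH1 differed by 0.24 as deposited and by -1.11 after quantile normalization, and VIM by 0.59 and -1.13. EPCAM differed by 1.70 and 0.30, SNAI2 by 2.11 and 0.33 and TWIST1 by 1.67 and 0.22. For ZEB1, at 1.47 and 0.50, both values were background. CDH2 differed by 0.96 and -0.35, with its 22Rv1 values at or near background. Among the genes above background, FN1, EPCAM, SNAI2 and TWIST1 were thus higher with shTNFRSF13B on both scales, all but FN1 by less than 2-fold after quantile normalization.

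**Figure D4:**
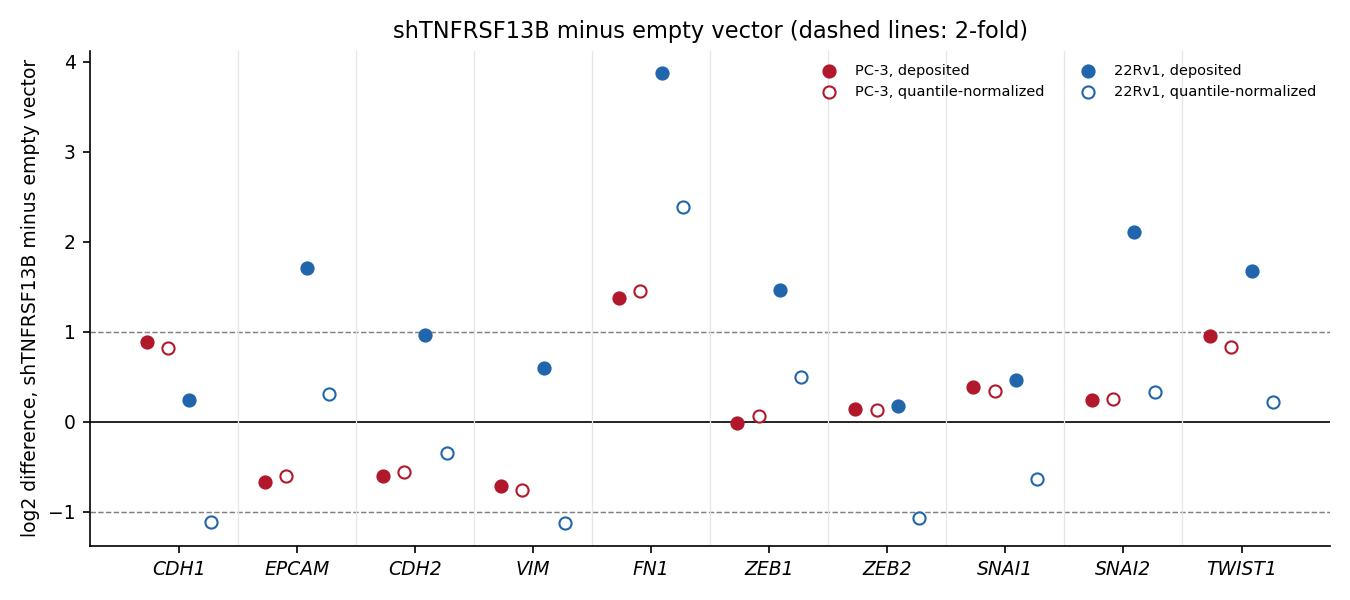
Log2 difference shTNFRSF13B minus empty vector (y axis) of each gene in PC-3 (red) and 22Rv1 cells (blue), as deposited (filled) or after quantile normalization (open). Each point is a difference of 2 arrays and dashed lines mark 2-fold. FN1 lies above the upper line in all 4 cases, and CDH1 and VIM in 22Rv1 cells change side with the scale.

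The further lists were described in the same way. Their genes named here and in the next paragraph were chosen for the largest knockdown differences in either line. Large differences among them therefore follow from that choice. In PC-3 cells, 5 of 27 mesenchymal genes were higher and 2 lower with shTNFRSF13B as deposited, and 0 of 28 epithelial genes were higher and 1 lower. Of the other cadherins 2 were higher and 2 lower of 19, of the catenins 0 and 0 of 7, of the desmosomal genes 0 and 1 of 13, and of the other EMT transcription factors 2 and 3 of 20, where 5.76% of all genes were higher and 4.69% lower. In PC-3 cells SPARC, a matricellular collagen-binding protein, was 12.18 with shTNFRSF13B against 6.23 with the empty vector, a 61.8-fold difference (59.5-fold after quantile normalization). LOX, the collagen cross-linking lysyl oxidase, was 8.41 against 5.51, and the cadherin genes CDH12 and CDH6 were 10.71 against 7.20 and 7.68 against 5.52. These 4 genes were higher with shTNFRSF13B. The desmosomal gene PKP1 was lower, at 9.16 against 10.39, as were ETS1, at 8.52 against 9.84, and TNC, at 6.48 against 8.64. The related plakophilin gene PKP2 was 13.46 against 12.64, and ID3 was 5.88 against a background value of 4.19, at least 1.95-fold higher. GRHL2 was 4.58 (background) against 5.56, so its difference could not be placed within or beyond 2-fold. Within 2-fold lay SPINT2, a serine protease inhibitor, at 9.80 against 8.97, JUP, at 8.14 against 7.47, and CTNNB1, at 13.83 against 13.64.

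In 22Rv1 cells, 19 of 28 epithelial genes were higher and 2 lower with shTNFRSF13B as deposited, and 0 and 6 after quantile normalization. The mesenchymal genes gave 12 and 1 of 27 as deposited and 2 and 8 after quantile normalization. On these scales the other cadherins gave 9 and 1, then 1 and 3, the catenins 4 and 0, then 0 and 2, the desmosomal genes 8 and 0, then 3 and 2, and the other EMT transcription factors 7 and 1, then 2 and 4. Over all genes these shares were 58.3% and 2.01% as deposited, then 13.3% and 15.5%. The epithelial transcription factors ELF3 and EHF were lower with shTNFRSF13B on both scales. ELF3 was 6.91 against 9.90 and EHF 10.67 against 12.64. SOX9, a transcription factor of progenitor cells, was 6.92 against 10.47 (6.51 against 11.70 after quantile normalization), and CDH18 was 5.16 (background) against 6.80. CDH24 was higher on both scales, at 9.49 against 5.33 (9.10 against 6.56 after quantile normalization), as was TCF4, a basic helix-loop-helix factor, at 9.75 against 6.54. The actin gene ACTA2 was lower, at 5.56 against 6.60. The matrix gene TNC was 5.24 (background) against 6.14, and the desmosomal cadherin gene DSC2 was 9.17 against 9.94. Both were counted as 2-fold lower only after quantile normalization. DSC1 was 4.38 with the empty vector and background, at 3.53, with shTNFRSF13B. JUP, at 9.63 against 9.78, and CTNNA1, at 13.78 against 13.85, were likewise 2-fold lower only after quantile normalization.

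**Figure D5:**
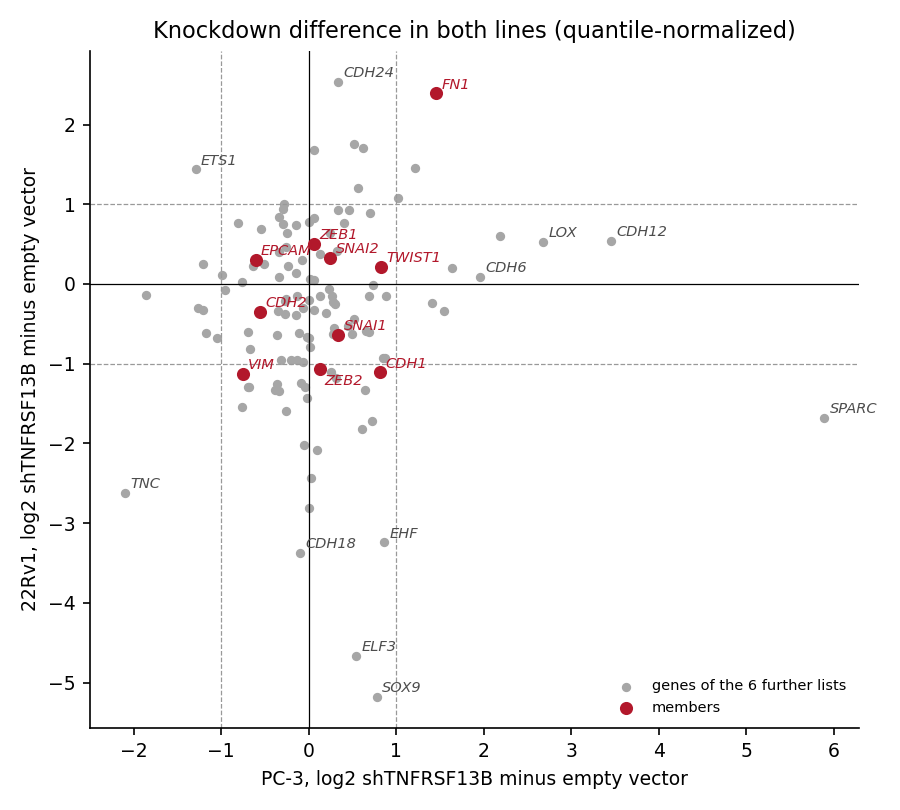
Log2 difference shTNFRSF13B minus empty vector after quantile normalization in PC-3 (x axis) and 22Rv1 cells (y axis), 1 point per gene, for the 10 genes (red) and the genes of the 6 further lists (grey). Dashed lines mark 2-fold. FN1 is the only red point beyond 2-fold in both lines, and SPARC lies far to the right at 5.89.

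The genes whose profile lay nearest to each of 6 members over the 4 arrays were sought among 13180 genes, by the Euclidean distance between quantile-normalized values after each gene's mean was removed. These 6 were the members with a span of at least 2 between arrays. The nearest to CDH2 was EMP1, at a distance of 0.21, followed by DPF3 (0.26) and RELN (0.27). For EPCAM they were MCCC2 (0.25), AFDN, the gene of the junction protein afadin (0.29), and BCL11A (0.37). For ZEB1 they were COTL1 (0.43), TMEM156 (0.47) and the integrin gene ITGA6 (0.50). FN1 lay nearest to GPRC5B (0.54), PRRG1 (0.57) and ACSL4 (0.58). VIM was followed by SLCO1B3 (0.58), SULF2 (0.63) and FHL2 (0.66), and CDH1 by TMT1A (0.73), TARP (0.90) and CRNDE (1.10). With 4 arrays, a small distance mostly repeats the contrast between the lines.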

How the data were processed

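The values deposited by the authors were log2 expression levels of each probe set on each array. Partek, RMA and Affymetrix Expression Console are listed in the submitters' processing notes, and the methods name the Clariom D platform. Whether the deposited values came from that array type was not settled here. Program versions and a genome build are not given in the sources used here. RMA corrects background and usually equalises distributions, yet the 4 columns differed in scale. The table held 24351 probe sets, of which 17709 had 1 symbol in the platform annotation and 6642 had no listed symbol. Where several probe sets named a gene (20 genes), the brightest by its mean was used, leaving 17687 genes.

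A difference is one log2 value minus another, counted at 2-fold as in the methods. Each condition had 1 array and no test was made, and the precision is limited by the number of arrays. Quantile normalization of the 4 columns was the second scale. Further alternatives were centring, loess of the difference on the level (span 0.4), leaving out genes at background on both arrays, averaging the probe sets of a gene, and thresholds of 1.5-fold and 3-fold. The members and lists were chosen with earlier results of these data known. Named genes were all members and, per further list, the 4 with the largest line difference and the 2 with the largest knockdown difference in each line after quantile normalization, among genes above background on at least 1 array. TMEM30B was chosen after its window was read, and FOLH1, STEAP2, HOXB13 and COL1A2 after their values were seen. The quantile and loess steps were run on simulated data with a small planted set of shifted probe sets, unlike the many differences between these lines. The background bounds, list counts, nearest profiles and motif search were not tested in this way. Python 3.11.15, numpy 2.4.6, pandas 2.3.3 and statsmodels 0.14.6 were used.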

Additional observations from a re-analysis of the deposited data

Results flagged for a closer look

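ETS1 was listed with opposite differences in the lines. With shTNFRSF13B it was 8.52 against 9.84 in PC-3 cells, a log2 difference of -1.32 (-1.29 after quantile normalization). In 22Rv1 cells it was 4.56 against 2.47, but both values were background on either scale, so no direction could be read there. The difference between the lines was not tested.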

How the results depend on the processing

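The number of members past 2-fold between the lines stayed within 1.5 times of the deposited count under each of the 7 alternatives, with either construct. With the empty vector the split of 6 higher and 2 lower became 4 and 3 after quantile normalization, centring or loess. In PC-3 cells the knockdown count of 1 became 6 at 1.5-fold and 0 at 3-fold. In 22Rv1 cells the 5 higher and 0 lower became 1 and 3 after quantile normalization, 1 and 4 after centring, and 1 and 2 (a count of 3) after loess, the 1 higher gene being FN1 each time. The direction reversed for SNAI2 between the lines with the empty vector, to -0.31 after quantile normalization, -0.026 after centring and -0.23 after loess, and for ZEB1 in 22Rv1 cells with shTNFRSF13B, to -0.17 after centring, where both values were background. Of 160 member differences under an alternative, 130 kept their side of 2-fold, 26 crossed it and 4 that were past 2-fold as deposited changed sign. Of 336 counts over the further lists, 109 moved by more than 1.5 times. The cause of these shifts was not tested. Signal over background limits SNAI1 on all 4 arrays and ZEB2 on 3.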
